A study of Mus musculus with 6 samples.

Results

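The genes described here encode mitochondrial ribosomal proteins of the mouse and were followed in liver RNA after treatment with the compound iD1. Members were all genes whose symbol is Mrpl or Mrps followed by a number and at most 1 letter, Mrpl standing for the large and Mrps for the small subunit of the mitochondrial ribosome. Mrps36 is counted with the small subunit here by its symbol, although its protein is now placed in another complex. This gave 78 of the 34866 genes in the table, 49 of the large and 29 of the small subunit. The symbol, not a measured value, chose them, and all 78 had enough counts to be tested. Livers came from male C57BL/6 mice that were 8 weeks old. There were 3 vehicle libraries and 3 libraries from mice given iD1. The treatment protocol names an intraperitoneal injection for all samples, while the treatment label of the vehicle mice reads untreated. Only a code name is given for the compound, with no dose, exposure time or target. No genetic change is named for either group. One vehicle column bears a number found in no sample title and stood in as an unnumbered vehicle replicate. Nothing in the labels states that each library is a different animal, so the p-values describe the spread between these samples, which may be technical.

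The mitochondrial ribosome translates the few messenger RNAs of the mitochondrial genome, all of which encode subunits of the respiratory chain and the ATP synthase. Its ribosomal RNAs are encoded in mitochondrial DNA, whereas its proteins are encoded by nuclear genes, made in the cytosol and imported. Many of these proteins have bacterial counterparts and others exist only in mitochondrial ribosomes. Hepatocytes are rich in mitochondria, which carry out fatty acid oxidation and steps of the urea cycle and gluconeogenesis.

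Depth ranged from 23515571 to 37613549 estimated counts per library, and the fewest counts that any member had in any library were 18, for Mrpl23. Mitochondrially encoded genes took 10.6% to 13.6% of the counts in vehicle and 8.68% to 10.3% in iD1 libraries. The factors of the trimmed mean of M-values (TMM), which scale for composition, were 1.010 to 1.108 in vehicle and 0.878 to 1.005 in iD1. Hepatocyte markers summed to between 76902 and 99156 CPM (counts scaled to a common library size) in vehicle and between 97355 and 107387 in iD1, with 2 of 6 called higher. Of the 6 Kupffer cell, 5 sinusoidal endothelial and 6 stellate cell markers, 1 was called, the stellate marker Lrat, which was lower. At an unadjusted p under 0.05 in edgeR's quasi-likelihood F test, 15.2% of all tested genes were higher and 16.1% lower. Among these markers 1 Kupffer was higher and 1 lower, 1 endothelial higher and 3 lower, and 0 stellate higher and 2 lower. The summed levels of these lists were 83.6 to 140, 114 to 152 and 171 to 230 CPM in vehicle, and 82.3 to 114, 111 to 134 and 163 to 221 CPM in iD1. Of 5 cholangiocyte markers Sox9 was called higher and Krt19 lower (sums of 22.9 to 36.5 CPM in vehicle and 28 to 45.5 in iD1). The 3 tested of 4 neutrophil markers were called higher, with sums of 0.233 to 0.398 CPM in vehicle and 1.97 to 9.51 in iD1. The 4 T and B cell markers, of which 1 was tested and none called, summed to 0.771 to 2.30 CPM in vehicle and 0.615 to 1.39 in iD1. No marker was at 0 in every library. These values moved with the groups to differing extents, and their part in the results on mitochondrial ribosomal proteins was not tested. In whole liver, fewer cells of a type and less RNA per cell cannot be told apart.

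The first question was whether the transcripts of mitochondrial ribosomal proteins differed between iD1 and vehicle livers. Most lay close to no change: 60 of 78 were within 0.3 of 0 on the log2 scale, 38 log2 fold changes were negative and 40 positive, and their median was 0.01, against 0.00 for all tested genes. With p-values from edgeR's quasi-likelihood F test, adjusted by the Benjamini-Hochberg method across the 13718 genes tested, 7 members fell and 1 rose at an adjusted p of 0.05. That is 10.3% of the members, where 16.7% of all tested genes were called, 8.42% higher and 8.3% lower. By the subunit in the symbol, 4 of 49 large-subunit members fell and 1 rose, with a median log2 fold change of 0.02. Of the 29 small-subunit members 3 fell and 0 rose by the same test, DESeq2 and limma-voom likewise calling 0 higher, with 1 higher at an unadjusted p under 0.05. Their median was -0.00. The called transcripts had log2 fold changes from -0.44 to -0.56 for those that fell, and 1.45 for Mrpl38, the one that rose.

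**Figure D1:**
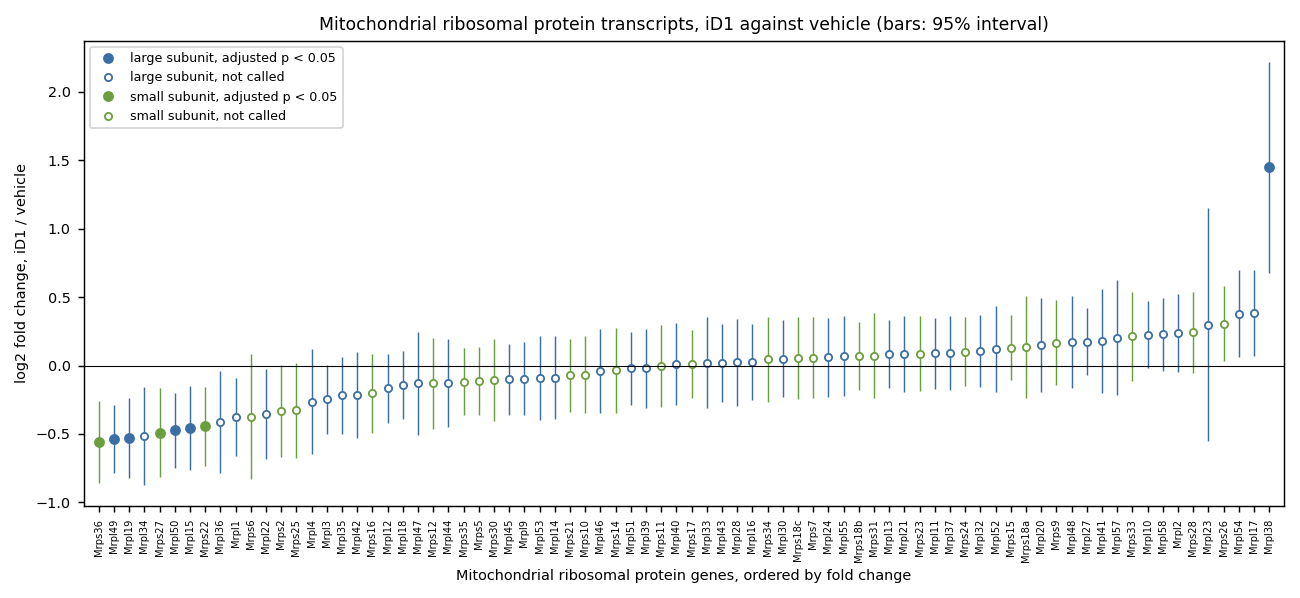
Log2 fold change of iD1 over vehicle (vertical axis) for each of the 78 mitochondrial ribosomal protein genes, ordered by value (horizontal axis), with 95% intervals. Colours give the subunit and filled points the 8 called genes; most points lie near 0, 7 filled points lie between -0.44 and -0.56, and Mrpl38 stands at 1.45.

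The summed level of all 78 transcripts did not separate the groups. It was 1852, 1643 and 1837 CPM in the vehicle libraries (replicate 1, replicate 2 and the unnumbered replicate, the order kept throughout) and 1661, 1898 and 1810 CPM in iD1 replicates 1, 2 and 3. The large subunit summed to 1238, 1096 and 1237 CPM in vehicle and to 1119, 1295 and 1247 CPM in iD1. For the small subunit the sums were 614, 547 and 599 CPM in vehicle and 542, 603 and 563 CPM in iD1. In each of these sums the ranges of the groups overlapped. Mrpl38 alone carried part of the iD1 sums, and without it the totals were 1809, 1602 and 1797 CPM in vehicle and 1599, 1785 and 1645 CPM in iD1.

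The precision was high enough to bound most differences. The standard errors of the members' log2 fold changes ran from 0.11 to 0.38 with a median of 0.13, against a median of 0.17 over all tested genes. For 58 of 78 members (74.4%) the 95% interval lay wholly inside a 1.5-fold change in either direction, which held for 36.2% of all tested genes. Inside a 2-fold change lay 76 members (97.4%), against 67.1% of all tested genes. The groups did not overlap in 22 members, 13 lower and 9 higher with iD1. Over all tested genes 37.2% did not overlap, 18.7% lower and 18.5% higher. At an unadjusted p under 0.05, 11 members were lower (14.1%) and 4 higher (5.13%), against 16.1% and 15.2% of all tested genes.

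Among the transcripts that fell, 3 have small-subunit symbols. Mrps36 (ENSMUSG00000061474.11, GRCm38 chr13:100735955-100744659, minus strand) was named as a ribosomal protein and is now known as an adaptor of the 2-oxoglutarate dehydrogenase complex, a citric acid cycle enzyme. It measured 9.48, 9.62 and 8.88 CPM in vehicle and 6.17, 6.86 and 5.90 CPM in iD1, so that every iD1 library was below every vehicle library. The log2 fold change was -0.56 (SE 0.13, adjusted p = 0.0209 in edgeR's quasi-likelihood test, as for all adjusted p-values here), from means of 9.33 ± 0.390 to 6.31 ± 0.497 CPM (SD, n = 3 each). Mrps27 (ENSMUSG00000041632.6, chr13:99344786-99415562, plus strand), a pentatricopeptide repeat protein of the small subunit, measured 27.2, 27.9 and 26.9 CPM in vehicle and 17.1, 24.0 and 17.2 CPM in iD1. The groups did not overlap, and iD1 replicate 2 lay nearest to vehicle. Its log2 fold change was -0.49 (SE 0.15, adjusted p = 0.0472), from 27.3 ± 0.492 to 19.4 ± 3.94 CPM. Mrps22 (ENSMUSG00000032459.9, chr9:98588730-98601660, minus strand), a protein without a bacterial counterpart, measured 20.8, 19.4 and 23.7 CPM in vehicle and 15.2, 17.5 and 14.2 CPM in iD1. Again no iD1 library reached the lowest vehicle library, and the log2 fold change was -0.44 (SE 0.13, adjusted p = 0.0431), from 21.3 ± 2.21 to 15.6 ± 1.69 CPM.

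The other 4 that fell encode large-subunit proteins. Mrpl49 (ENSMUSG00000007338.9, chr19:6053622-6057785, minus strand), a protein specific to mitochondrial ribosomes, measured 23.6, 21.1 and 21.7 CPM in vehicle and 16.2, 14.7 and 14.9 CPM in iD1. The libraries of each group lay close together and the groups were well apart, with a log2 fold change of -0.54 (SE 0.11, adjusted p = 0.0113), from 22.1 ± 1.29 to 15.3 ± 0.830 CPM. Mrpl19 (ENSMUSG00000030045.10, chr6:81957851-81965958, minus strand), the counterpart of a bacterial large-subunit protein, measured 13.2, 12.9 and 13.8 CPM in vehicle and 10.4, 8.28 and 8.92 CPM in iD1. All iD1 libraries were lower than all vehicle libraries, and the log2 fold change was -0.53 (SE 0.13, adjusted p = 0.0238), from 13.3 ± 0.483 to 9.21 ± 1.11 CPM. Mrpl50 (ENSMUSG00000044018.3, chr4:49512596-49521093, minus strand), another protein without a bacterial counterpart, measured 39.6, 36.7 and 44.6 CPM in vehicle and 28.4, 31.4 and 27.1 CPM in iD1. The groups did not overlap here either, and the log2 fold change was -0.47 (SE 0.12, adjusted p = 0.0271), from 40.3 ± 4.01 to 29.0 ± 2.21 CPM. Mrpl15 (ENSMUSG00000033845.13, chr1:4773206-4785739, minus strand), which has a bacterial counterpart, measured 53.1, 52.2 and 59.9 CPM in vehicle and 34.2, 46.8 and 39.1 CPM in iD1. The highest iD1 library, replicate 2, stayed under the lowest vehicle library, and the log2 fold change was -0.46 (SE 0.14, adjusted p = 0.0483), from 55.0 ± 4.19 to 40.0 ± 6.37 CPM. After a correction for GC content and length, the log2 fold change of Mrpl15 was -0.25 and it was no longer called (adjusted p = 0.311).

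**Figure D2:**
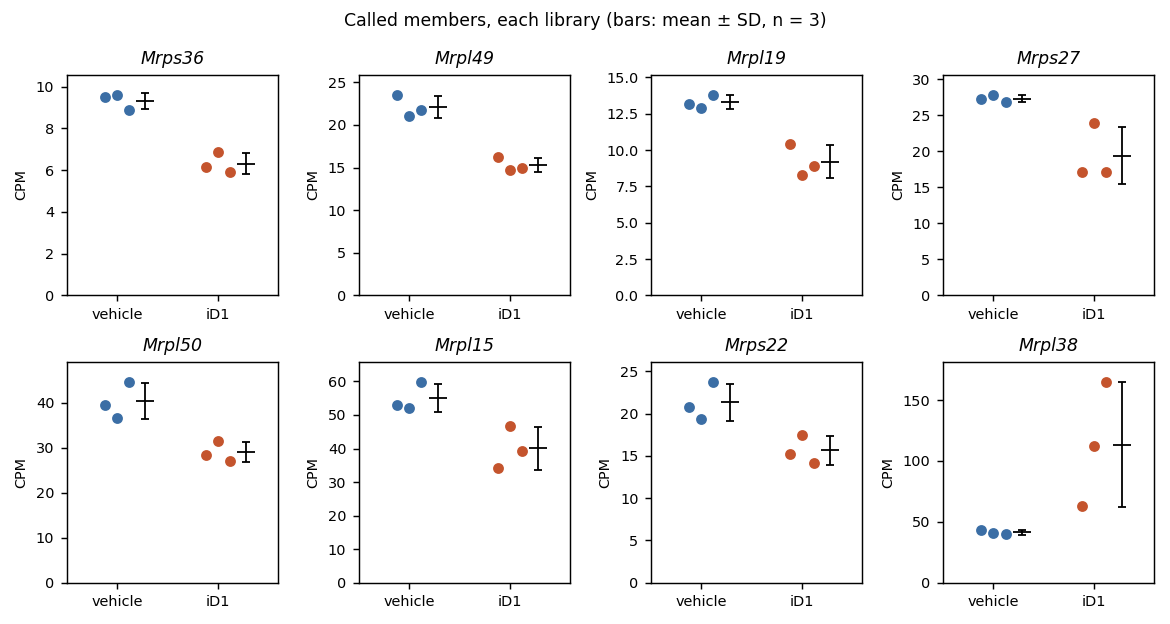
Level in CPM (vertical axes, from 0) of the 8 called genes in each library, for vehicle and iD1 (horizontal axes), with 1 point per library and bars for the mean ± SD (n = 3). In every panel the groups do not overlap; in Mrpl38 the iD1 libraries spread from 62.6 to 165 CPM.

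These calls rested on small differences, and most were lost when 1 library was left out. Mrpl49 stayed called without each of the 6 libraries, with adjusted p-values up to 0.0480. The number of members that fell was 1 without vehicle replicate 1, 3 without vehicle replicate 2, 1 without the unnumbered vehicle library, 5 without iD1 replicate 1, 6 without iD1 replicate 2 and 1 without iD1 replicate 3. Calls over all tested genes changed as well, from 16.7% to 10.5%, 9.49%, 8.74%, 18.1%, 10.8% and 8.64% in the same order. Some members that fell in these fits were not called with all 6 libraries. They were Mrpl1 without vehicle replicate 2, and Mrpl34 and Mrpl36 without iD1 replicate 1. No member fell with the replicate number as a block, a fit of the same edgeR test in which 3 members were lower and 1 higher at an unadjusted p under 0.05. In that fit the unnumbered vehicle library and iD1 replicate 3 each stood alone in a block. Only replicates 1 and 2 of each group thus bore on the difference. The block fit called 6.03% of all tested genes, against 16.7% without the block.

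Promoter sequences of 5 of the 8 called genes were available in the RefSeq table (GRCm38.p6) and are given here because the question arises whether the transcripts that fell share a promoter sequence. Each sequence runs from 250 bases before to 30 bases after the annotated start, 5′ to 3′ on the gene's own strand, with motif matches in capitals. The motifs searched on both strands were GCGCATGCG for NRF1, a factor known to act on many nuclear genes for mitochondrial proteins, CCGGAAG for the ETS family, to which GABPA belongs, and AAGATGGC for YY1. No motif is contained in another.
Mrps36 promoter, chr13:100744630-100744909, minus strand: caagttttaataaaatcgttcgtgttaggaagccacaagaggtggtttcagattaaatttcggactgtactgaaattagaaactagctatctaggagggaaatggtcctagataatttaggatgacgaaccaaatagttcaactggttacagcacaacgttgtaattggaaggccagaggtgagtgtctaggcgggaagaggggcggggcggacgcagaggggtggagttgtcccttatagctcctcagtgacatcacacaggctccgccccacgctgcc
Mrps27 promoter, chr13:99344536-99344815, plus strand: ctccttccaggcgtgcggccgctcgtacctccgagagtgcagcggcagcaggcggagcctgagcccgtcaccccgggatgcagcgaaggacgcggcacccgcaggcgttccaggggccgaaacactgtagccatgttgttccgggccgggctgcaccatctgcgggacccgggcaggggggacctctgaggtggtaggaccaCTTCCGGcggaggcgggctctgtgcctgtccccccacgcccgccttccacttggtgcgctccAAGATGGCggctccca
Mrps22 promoter, chr9:98601650-98601929, minus strand: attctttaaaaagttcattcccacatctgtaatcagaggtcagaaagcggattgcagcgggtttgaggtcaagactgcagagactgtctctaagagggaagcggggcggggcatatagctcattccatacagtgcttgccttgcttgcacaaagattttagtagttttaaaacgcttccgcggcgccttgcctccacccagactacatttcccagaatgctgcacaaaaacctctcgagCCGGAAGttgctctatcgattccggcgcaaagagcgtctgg
Mrpl49 promoter, chr19:6057726-6058005, minus strand: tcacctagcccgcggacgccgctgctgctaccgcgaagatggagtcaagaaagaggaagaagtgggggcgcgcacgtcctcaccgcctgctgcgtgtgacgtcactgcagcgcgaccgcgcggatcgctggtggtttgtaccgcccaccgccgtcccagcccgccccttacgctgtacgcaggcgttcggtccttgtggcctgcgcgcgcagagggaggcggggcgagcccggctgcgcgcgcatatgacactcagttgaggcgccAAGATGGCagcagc
Mrpl50 promoter, chr4:49521054-49521333, minus strand: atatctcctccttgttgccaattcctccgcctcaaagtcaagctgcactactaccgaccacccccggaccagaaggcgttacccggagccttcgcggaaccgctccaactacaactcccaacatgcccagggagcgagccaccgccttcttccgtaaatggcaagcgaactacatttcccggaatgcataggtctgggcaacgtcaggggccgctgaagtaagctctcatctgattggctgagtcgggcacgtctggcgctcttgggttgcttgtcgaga

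No motif was in all 5 sequences: the ETS and YY1 letters were each in 2 of them and the NRF1 letters in 0. The YY1 letters lay in the same direction and at nearby places in Mrps27 and Mrpl49. Mrps27 had the ETS letters on the reverse strand 48 bases before the start and the YY1 letters 15 bases after it. In Mrps22 the ETS letters began 11 bases before the start, and in Mrpl49 the YY1 letters began 17 bases after it, positions being counted from the first base on either side. The windows of Mrpl50 and Mrps36 held none of the 3 motifs. In the longer promoter windows, from 250 bases before to 50 after the start, 69 of the 78 members had a sequence. The ETS letters were in 26 of the 69 (37.7%), against 19.1% of the 10173 tested genes with a promoter and 9.93% of all 27025 promoters. The YY1 letters were in 12 (17.4%), against 5.10% of tested genes and 3.19% of all promoters. The NRF1 letters were in 7 (10.1%), against 3.95% and 1.95%. At least 1 of these motifs was in 38 of the 69 members (55.1%) and in 25.8% of the tested genes. The members' medians with and without a motif were close to each other: the median log2 fold change was 0.04 with and -0.02 without ETS, -0.07 with and 0.01 without YY1, and 0.07 with and 0.00 without NRF1. These are descriptions of letters in a window, with no test.

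Mrpl38 (ENSMUSG00000020775.13, chr11:116131817-116138868, minus strand), a protein of the central protuberance of the large subunit, was the only member called higher. It measured 43.7, 41.1 and 39.8 CPM in vehicle and 62.6, 112 and 165 CPM in iD1. The vehicle libraries lay within 4 CPM of each other, all iD1 libraries were above them, and the iD1 libraries differed widely among themselves. The log2 fold change was 1.45 (SE 0.32, 95% interval 0.68 to 2.22, adjusted p = 0.0274), from 41.5 ± 1.97 to 113 ± 51.2 CPM (SD, n = 3 each). The adjusted p was 0.0842 without vehicle replicate 1, 0.0975 without vehicle replicate 2, 0.0920 without the unnumbered vehicle replicate, 0.0903 without iD1 replicate 2, 0.112 with no filter on low counts and 0.0556 with the replicate block.

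Genes on the same strand beside Mrpl38 were then read, a set chosen after the values were seen. In the direction of transcription Fbf1 lies before and Trim65 after Mrpl38. Fbf1, which encodes a protein of the centriole's distal appendages, ends 3417 bases before Mrpl38 begins. It measured 11.3, 6.27 and 6.98 CPM in vehicle and 94.2, 167 and 304 CPM in iD1, with a log2 fold change of 4.53 (SE 0.54, adjusted p = 0.00564). The iD1 libraries came in the same order for Fbf1 as for Mrpl38, with replicate 1 lowest and replicate 3 highest. Trim65, a ubiquitin ligase gene that begins 689 bases past the end of Mrpl38, measured 9.78, 10.4 and 10.1 CPM in vehicle and 5.72, 6.92 and 12.1 CPM in iD1. Its groups overlapped, and the log2 fold change was -0.30 (SE 0.25, adjusted p = 0.447). Whether the rise of Mrpl38 is tied to that of Fbf1 was not tested.

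**Figure D3:**
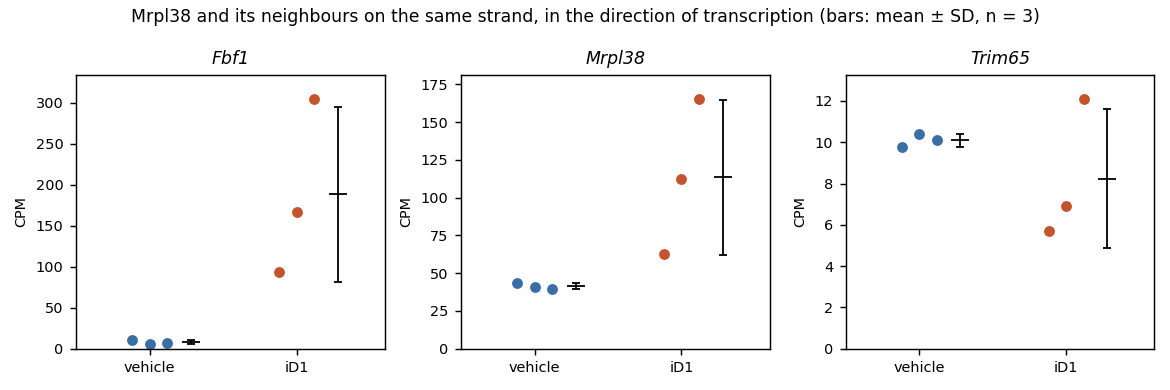
Level in CPM (vertical axes, from 0, each on its own scale) of Mrpl38 and 2 neighbours on its strand in each library, in the order of transcription, with bars for the mean ± SD (n = 3). Fbf1 and Mrpl38 are higher in all iD1 libraries and have the same order of iD1 libraries, while the groups of Trim65 overlap.

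The members with the largest differences that did not pass the test were Mrpl34, Mrpl36 and Mrpl17, all of the large subunit with bacterial counterparts. Mrpl34 measured 23.2, 18.2 and 18.8 CPM in vehicle and 15.8, 15.1 and 11.1 CPM in iD1, and its groups did not overlap (log2 fold change -0.51, SE 0.16, adjusted p = 0.0547). Mrpl36 measured 18.3, 14.0 and 14.6 CPM in vehicle and 13.9, 11.6 and 9.57 CPM in iD1, with groups that nearly met (log2 fold change -0.41, SE 0.17, adjusted p = 0.120). Mrpl17 had the largest positive value after Mrpl38, at 30.7, 23.4 and 26.1 CPM in vehicle and 31.2, 39.2 and 34.3 CPM in iD1 (log2 fold change 0.38, SE 0.14, adjusted p = 0.0903). Without overlap between groups, but not called, were also Mrpl1, Mrpl22, Mrpl3 and Mrpl18 on the lower side, and Mrps15, Mrpl27, Mrpl10, Mrpl58, Mrps28, Mrps26 and Mrpl54 on the higher side. Their log2 fold changes ran from -0.38 for Mrpl1 to 0.38 for Mrpl54, and Mrpl18 was the lower member nearest to 0 at -0.14.

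The members also differed from each other in level, here in CPM per kilobase of annotated exon in vehicle livers. Mrpl12, a protein of the stalk of the large subunit that binds translation factors, was highest at 47.7 ± 3.18 (SD, n = 3), with length taken as the union of annotated exons. Mrps21 of the small subunit followed at 42.7 ± 2.98. Mrpl38 was the third by the mean over all libraries only through its rise, with 16.3 ± 0.774 in vehicle and 44.5 in iD1. At the lower end were Mrps25 at 1.38 ± 0.199 and Mrpl23 at 0.288 ± 0.147. Of the 6576 exon bases of Mrps25, 4590 are shared with Nr2c2 on the opposite strand. Nr2c2 was called higher (log2 fold change 0.53, adjusted p = 0.0220). The level of Mrps25 may thus depend on whether the counting used strand. Mrpl19, at 2.44 ± 0.0886 in vehicle, was among the 3 lowest only by the mean over all libraries, which its fall with iD1 lowers, and Mrpl48 (2.18 ± 0.303), Mrps35, Mrpl3 and Mrps26 were below it in vehicle. A transcribed copy bears on the value of Mrpl23: the pseudogene Mrpl23-ps1 held 434, 463 and 411 estimated counts in vehicle and 353, 498 and 333 in iD1, against 17.8, 69.1 and 64.1, and 45.8, 54.0 and 35.3, for Mrpl23 itself. Reads of near-identical copies can be shared out between them, which makes the level of Mrpl23 uncertain. Mrps36 also has a counted copy, Mrps36-ps2, with 86.3, 82.4 and 74.6 estimated counts in vehicle and 47.0, 50.6 and 38.5 in iD1 (log2 fold change -0.41, adjusted p = 0.257). Another copy, Mrps36-ps1, went the other way, with 16.2, 20.1 and 1.09 estimated counts in vehicle and 20.4, 15.3 and 21.2 in iD1 (log2 fold change 1.08, adjusted p = 0.306). With such copies added to their members, an alternative chosen after seeing the data, the log2 fold change of Mrps36 went from -0.56 to -0.45. Mrps36 stayed called at an adjusted p of 0.0340.

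**Figure D4:**
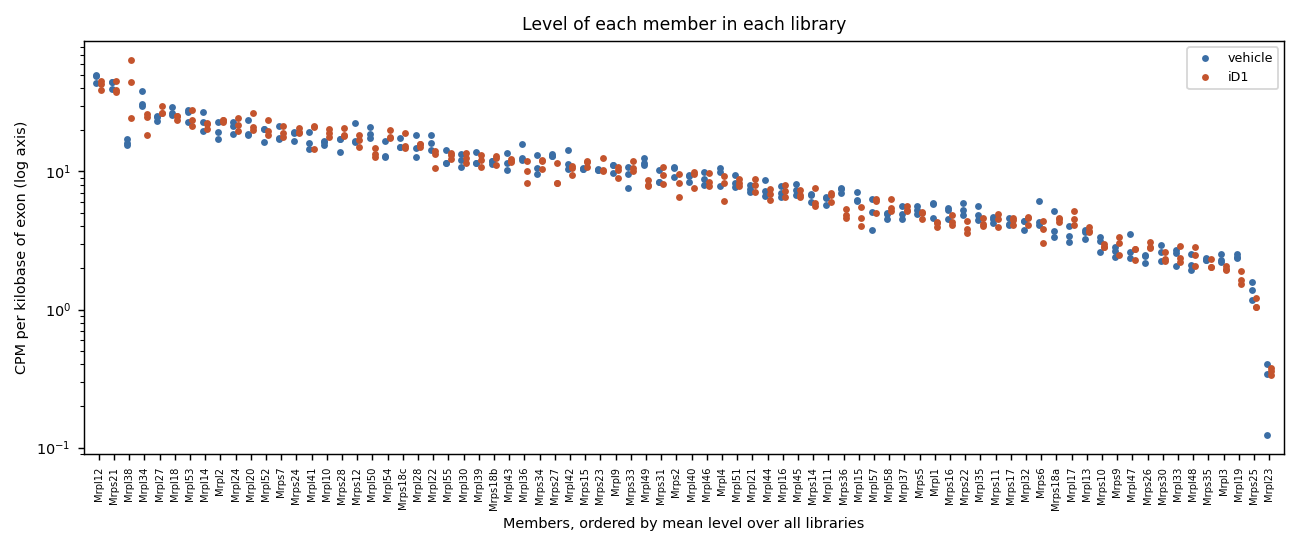
Level of each mitochondrial ribosomal protein gene in CPM per kilobase of exon (vertical axis, logarithmic) in each library, ordered by the mean over all libraries (horizontal axis), with vehicle and iD1 in separate colours. Mrpl12 and Mrps21 are highest in vehicle at means of 47.7 and 42.7, Mrpl23 is lowest at 0.288, and Mrpl38 is the gene whose iD1 points stand farthest from its vehicle points.

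The other genes of mitochondrial gene expression were read from lists by role, in the same test, in which 8.42% of all tested genes were called higher and 8.3% lower. Proteins of the mitochondrial ribosome with other symbols, such as Ptcd3 and Aurkaip1, had 0 calls among 5 by edgeR, DESeq2 and limma-voom, and 0 at an unadjusted p under 0.05. Their median log2 fold change was -0.06. Ptcd3 had means of 43.6 ± 4.57 CPM in vehicle and 38.2 ± 3.37 in iD1 (SD, n = 3; adjusted p = 0.327), and Aurkaip1 of 35.8 ± 3.61 and 39.4 ± 5.78 CPM (adjusted p = 0.538). At an unadjusted p under 0.05, 7 of 26 factors that assemble the ribosome or modify its RNA were lower (26.9%) and 3 higher (11.5%). Over all tested genes these shares were 16.1% and 15.2%. The median of the 26 was -0.03. DESeq2 called 1 of them higher and limma-voom 0. By edgeR 4 of the 26 were called lower and 0 higher. Those that fell were the ribosomal RNA methyltransferase Mrm2 (log2 fold change -0.66, 5.46 ± 0.600 to 3.45 ± 0.304 CPM, adjusted p = 0.0283), the pseudouridine synthase Rpusd4 (-0.66, 5.05 ± 0.422 to 3.20 ± 0.193 CPM, adjusted p = 0.0260), Ngrn, which acts with it on the large ribosomal RNA (-0.52, 11.7 ± 1.12 to 8.18 ± 0.311 CPM, adjusted p = 0.0241), and the small-subunit assembly factor Mettl17 (-0.66, 8.37 ± 0.755 to 5.32 ± 1.26 CPM, adjusted p = 0.0383). The helicase Ddx28, also an assembly factor, had means of 8.17 and 19.9 CPM (log2 fold change 1.29, adjusted p = 0.0680).

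Among 13 translation factors of mitochondria 5 were lower (38.5%) and 0 higher at an unadjusted p under 0.05. For all tested genes the shares were 16.1% and 15.2%. The 13 translation factors had 3 lower and 0 higher calls, and none was called higher by DESeq2 or limma-voom. Their median log2 fold change was -0.24, and in 7 of them all iD1 libraries lay below all vehicle libraries. Of all tested genes 8.3% were called lower, and 18.7% had all iD1 libraries below all vehicle libraries. The 3 that fell were the initiation factor Mtif2 (log2 fold change -0.51, 25.8 ± 1.35 to 18.1 ± 2.15 CPM, adjusted p = 0.0222), Taco1, a translational activator of the cytochrome oxidase subunit mt-Co1 (-0.65, 13.6 ± 1.39 to 8.66 ± 0.896 CPM, adjusted p = 0.0124), and the release factor Mtrf1l (-0.80, 4.73 ± 0.705 to 2.71 ± 0.423 CPM, adjusted p = 0.0252). Among 19 genes for the upkeep and transcription of mitochondrial DNA and for RNA processing, 3 fell and 2 rose. The nuclease Mgme1 (log2 fold change -1.21, 7.34 ± 0.667 to 3.16 ± 0.586 CPM, adjusted p = 0.00260) and the helicase Twnk (-0.76, 23.5 ± 2.0 to 13.9 ± 1.5 CPM, adjusted p = 0.00471) fell, as did Polg2, the accessory subunit of the DNA polymerase, which was named after its value was seen (-0.51, adjusted p = 0.0491). Hsd17b10, a subunit of mitochondrial RNase P (0.45, 103 ± 7.39 to 140 ± 8.69 CPM, adjusted p = 0.0289), and the transcription factor Tfb2m (0.39, 29.9 ± 1.33 to 39.1 ± 2.68 CPM, adjusted p = 0.0403) rose. Some of the Twnk exons overlap those of Mrpl43 on the opposite strand by 507 bases, and whether the counting used strand is not stated by the labels.

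The 13 mitochondrially encoded genes, whose messages this ribosome translates, had 0 calls by edgeR, DESeq2 and limma-voom, with 1 lower and 0 higher at an unadjusted p under 0.05. Their median log2 fold change was -0.16. Summed, they measured 96003 to 134609 CPM in vehicle and 86354 to 112198 CPM in iD1, so that the groups overlapped. The shares of unscaled counts given above did not overlap. mt-Co1 had means of 27786 ± 3848 CPM in vehicle and 20866 ± 4121 in iD1 (adjusted p = 0.220), and mt-Atp6 of 15331 ± 2379 and 13768 ± 927 CPM (adjusted p = 0.615). Of 12 regulators of nuclear genes for mitochondrial proteins, 2 rose and 1 fell. The coactivator Ppargc1a rose from 6.94 ± 0.782 to 18.5 ± 7.57 CPM (log2 fold change 1.41, adjusted p = 0.0262) and its relative Pprc1 from 7.93 ± 0.0438 to 12.4 ± 0.995 CPM (0.64, adjusted p = 0.00851). The nuclear receptor Esrra fell from 26.8 ± 2.97 to 19.1 ± 2.06 CPM (-0.49, adjusted p = 0.0313). The factors whose motifs were searched above were not called. Log2 fold changes were 0.14 for Nrf1 (adjusted p = 0.495), -0.04 for Gabpa (adjusted p = 0.888) and 0.33 for Yy1 (adjusted p = 0.0625). For Nrf1 and Yy1 all iD1 libraries lay above all vehicle libraries, which held for 18.5% of all tested genes. Of 19 mitochondrial import genes 1 was called, the outer membrane receptor Tomm20, which rose from 42.8 ± 4.97 to 58.4 ± 5.15 CPM (0.45, adjusted p = 0.0383).

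Cytosolic ribosomal proteins and the nuclear-encoded subunits of the respiratory chain were read as lists of similar size. The first list, taken by symbol, had 78 tested genes, 77 of them protein-coding and 1 the transcribed pseudogene Rps4l. Of the 78, 0 were called by edgeR, DESeq2 or limma-voom, and Rps4l and 1 protein-coding gene were higher at an unadjusted p under 0.05. The 77 protein-coding genes had log2 fold changes from -0.14 to 0.39 with a median of 0.14, and Rps4l had 0.45 (adjusted p = 0.135). The second list had 80 tested genes, of which 78 are protein-coding and 2, Cox6c2 and Ndufb4c, are processed pseudogenes. Of the 80, 0 were called by the same 3 tools and 3, all protein-coding, were higher at an unadjusted p under 0.05. Its range was -0.45 to 0.31 with a median of 0.07. The mitochondrial ribosomal proteins thus had a wider range, from -0.56 to 1.45, and no test of this difference was made. Mrpl38 alone set the upper end, and the next highest member was Mrpl17 at 0.38.

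**Figure D5:**
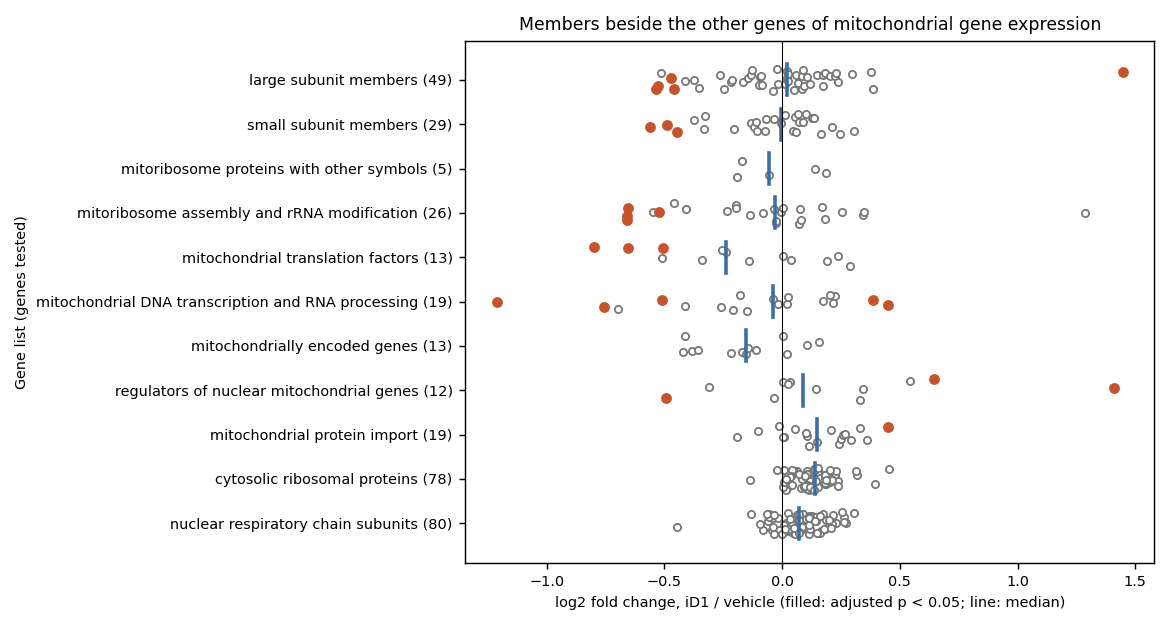
Log2 fold change of iD1 over vehicle (horizontal axis) for each tested gene of the members by subunit and of 9 further lists (vertical axis, with the number tested), with filled points for called genes and a line at each list's median. The translation factors have the lowest median at -0.24, and the cytosolic ribosomal proteins and respiratory chain subunits hold no filled point.

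Several of these list counts depended on single libraries. Lower calls among assembly factors numbered 1 without vehicle replicate 1 or 2. They numbered 0 by edgeR when iD1 replicate 2 or 3, or the unnumbered vehicle library, was left out. Those among translation factors were 1 when iD1 replicate 3, or vehicle replicate 2, or the unnumbered vehicle library was left out. The calls of Hsd17b10 and Tfb2m were both lost when any 1 of the 5 libraries besides iD1 replicate 1 was left out. Among the regulators, 1 rose instead of 2 when iD1 replicate 2 or 3, the first vehicle replicate or the unnumbered one was left out. Esrra lost its call with iD1 replicate 2, the second vehicle replicate or the unnumbered one left out. Tomm20 lost its call without either numbered vehicle library and without iD1 replicate 2 or 3.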

How the data were processed

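Polyadenylated liver RNA was sequenced with a stranded kit, per the labels' protocols, in 3 vehicle and 3 iD1 samples. The authors deposited estimated counts for each gene, unscaled, of which 22.6% to 27.7% per library were not whole. They were rounded before testing. Not given in the sources used here were the quantifier, its use of strand and the genome build. Of 34866 identifiers 34652 matched a symbol, and 99.4% matched GENCODE M21 (GRCm38) without their version, which gave positions and exon lengths. No row lacked a gene, and all columns of per-sample values were used. Within groups no pair of libraries agreed within sampling noise (chi-square per gene 38.5 to 95.4).

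Genes passing filterByExpr (minimum count 10, minimum total 15) were scaled by TMM and tested with edgeR 4.0.16 in R 4.3.3 by a robust, two-sided quasi-likelihood F test. Adjustment was by Benjamini-Hochberg over 13718 genes, with a threshold of 0.05, and "called" means past it. An SE is the size of the log2 fold change over the root of F. CPM uses TMM-scaled library sizes. An exact permutation test on 3 and 3 libraries has 0.1 as its smallest p. The scripts were tested on simulated data.

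The members and lists were chosen with earlier results of these data known. The rule for named genes took every called member, the 3 members of largest difference that were not called, the 3 highest and 3 lowest in CPM per kilobase, and of each other list up to 4 called genes by smallest p, or up to 2 by level where none was called. Ddx28, Nrf1, Gabpa, Yy1, Polg2, 4 further members of low level, the 3 pseudogenes in the lists, the neighbours of Mrpl38, the members whose groups did not overlap and the genes paired or overlapping with members were named outside it, after their values were seen. Some genes are not reported here. Tried as alternatives were DESeq2 1.42.0, limma-voom (limma 3.58.1), other scaling factors and filters, a threshold of 0.01, thinning, a replicate block, a correction for GC content and length, leaving out mitochondrially encoded genes or each library, shorter motifs and another exon length. The table's vehicle and iD1 columns shared only the replicate numbers 1 and 2, while the sample titles also share 3.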

Additional observations from a re-analysis of the deposited data

How the results depend on the processing

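With library size only, 14 members were called lower (10 of the large subunit) and 1 higher. In either direction, that scaling called 19.2% of the members and 18.1% of all tested genes. The median log2 fold change of the members was -0.19 while that of all tested genes was -0.20, so relative to all genes the members hardly moved. Of all called genes 50.4% were higher as reported, 24.1% with that scaling and 38.4% with upper-quartile factors. With no filter on low counts 0 members were higher by edgeR (3 at an unadjusted p under 0.05). At a threshold of 0.01 the counts were 0 higher and 0 lower members (0 of either subunit), 825 genes in all and 3 genes of the companion lists, against 16 at 0.05. With the replicate block they were 0, 0 (0 of either subunit), 827 and 2, in a fit where the unnumbered vehicle library and iD1 replicate 3 each stood alone in a block. Same-numbered libraries had deviation correlations of 0.168 and -0.126, and the other pairs across groups ran from -0.24 to 0.22. With only 2 same-numbered pairs, these values cannot settle whether the numbers mark pairs. Leaving out 1 library gave 0 to 1 higher members, 1 to 6 lower members (1 to 4 of the large and 0 to 3 of the small subunit), 1212 to 2574 called genes in all and 5 to 16 in the companion lists. Without vehicle replicate 1 the higher member was Mrpl54, not Mrpl38. Of 19 alternatives, Mrpl49 was called in 17, Mrps36 and Mrpl50 in 13, Mrpl19 and Mrpl38 in 12, Mrps22 in 11, and Mrps27 and Mrpl15 in 10, while Mrpl34 became called in 7. With the trend on GC content and length removed, Mrpl15 went from -0.46 to -0.25 and lost its call (adjusted p = 0.311), while the other 7 called members kept theirs. Calls were also lost for Mrps27 and Mrpl15 with DESeq2 size factors (adjusted p of 0.0504 and 0.0507), for Mrps22 with limma-voom (0.0511) and for Mrps27 after thinning (0.0839). Mrpl23 turned to -0.0521 without vehicle replicate 1 (adjusted p = 0.918) and ranged up to 0.59 without 1 library. The motif CCGGAA, 1 letter shorter, was in 58.0% of member promoters against 30.1% of tested genes. With the length of the longest transcript 8 of the 10 members of highest level stayed among the 10, but the order at the top turned, with means over all libraries of 63.1 for Mrps21, 54.9 for Mrpl38 and 52.5 CPM per kilobase for Mrpl12. DESeq2 called 1 higher and 8 lower members and limma-voom 1 and 6. Where no cause is given, the cause was not tested. The fewest counts of any member were those of Mrpl23, with 18 in its lowest library.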

Other observations

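Many mitochondrial ribosomal protein genes start close to a gene on the opposite strand. In GENCODE M21, 33 members have such a partner with a start within 1000 bases, and 29 of these partners were tested. How many of all genes have such a partner was not counted. Among the 29 tested partners 5 fell (Mitd1, Twnk, Apba3, Ptcd2 and Gga3) and 1 rose, Ppp1r10 beside Mrps18b. Over all tested genes 8.3% were called lower and 8.42% higher. The log2 fold change of Ppp1r10 was 0.90 (adjusted p = 0.00580), and that of Mrps18b was 0.07. Of the called members, Mrpl49 starts 59 bases from Fau, a gene for a cytosolic ribosomal protein, which was not called (log2 fold change 0.14, adjusted p = 0.539). Mrpl50 starts 83 bases from the zinc finger gene Zfp189 (0.28, adjusted p = 0.229). Mrps27 starts 81 bases from Ptcd2, another pentatricopeptide repeat gene, and this was the 1 pair called in the same direction (Ptcd2 -0.79, SE 0.15, adjusted p = 0.00896). The members Mrps11 and Mrpl46 start beside each other, with log2 fold changes of -0.00 and -0.04. These pairs were read after the values were seen, and no link within a pair was tested.

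Exons of some called members overlap exons of a gene on the opposite strand, which mixes reads if strand was not used in counting. Mrpl19 shares 1962 bases with Gcfc2 (log2 fold change -0.29, adjusted p = 0.387), and Mrpl49 shares 91 bases with Syvn1 (-0.32, adjusted p = 0.319). Mrps27 shares 506 bases with 6430562O15Rik, which had too few counts to be tested. Within 100000 bases of Mrpl38, Wbp2 (0.59, adjusted p = 0.0218) and Unk (0.60, adjusted p = 0.0490) were also called higher. Both were picked by name after their values were seen. The other genes of this window are not reported here, so no share called in it is given. Over all tested genes 8.42% were called higher.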
